A study of Mus musculus with 21 samples.

Results

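The Hox genes are the homeobox transcription factor genes of the Hoxa, Hoxb, Hoxc and Hoxd clusters, known as carriers of positional identity, and are described here in mouse skin keratinocytes. They were chosen by symbol alone, as every gene with a row of its own named Hox, a cluster letter and a paralogue number, without antisense transcripts and without rows that merge several symbols. No measured level enters that rule, but the set was proposed with results of these tables in view, led by Hoxc8, Hoxb6 and Hoxa5, so its calls are given as a description. This gave 31 genes among the 43943 loci of the table of culture fractions, the same 31 in each of the 3 deposited tables, and 31 of the 39 mouse Hox genes that GENCODE vM21 annotates. Of these, 9 lie in the Hoxa cluster, 10 in Hoxb, 7 in Hoxc and 5 in Hoxd. The other 8 (Hoxa2, Hoxa3, Hoxc5, Hoxc10, Hoxd3, Hoxd4, Hoxd10 and Hoxd11) have no row of their own and stand in 4 merged rows.

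Hox proteins bind DNA through a homeodomain and give cells along the head to tail axis of the embryo their regional identity. Within a cluster the genes are numbered by paralogue group, and genes with low numbers are switched on earlier and closer to the head than genes with high numbers. Adult skin cells keep part of this pattern, best known from fibroblasts, and several Hox genes also act in hair follicles and nails, above all Hoxc13.

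The series holds 21 RNA sequencing libraries of mouse keratinocytes from epidermis, in 7 groups of 3. The wild-type groups were cultured hair follicle stem cells (HFSCs), HFSCs purified by flow sorting, and total epidermal cells. The other groups came from 3C cultures, which were started from total epidermal cells and kept for 10 to 14 days: their CD34+ alpha-6 integrin+ fraction beside the CD34neg alpha-6 integrin+ fraction, and cultures given dorsomorphin, an inhibitor of BMP type I receptors and of AMP-activated protein kinase, beside cultures given cyclopamine, an inhibitor of the Hedgehog transducer Smoothened, each for 48 h. The study asked what the cells of these cultures are, and which genes change early under inhibitors that deplete or enrich HFSCs. Genotype is not given in the labels for the 3C groups, and strain, age and the body site of the skin are not given for any group, so no level below can be tied to a body region.

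Each table gives 1 FPKM value per locus and population, the authors' estimate over the 3 libraries of a population, so no spread between replicates stands beside any level, and read depth is unknown. FPKM scales fragments to transcript length and library size, so levels can be set side by side between genes. The first table names its populations CD34a6, HFSC and bulk. Sorted and cultured HFSCs are among the groups, but neither label ties them to CD34a6 or HFSC, so the column names are kept, and bulk was read as total epidermal cells. A gene was called higher or lower where the adjusted p of the authors' deposited table was under 0.05. The labels do not say whether replicates came from separate animals or cultures, so these p-values may cover technical spread only. Scaling differed between the 3 tables, so no level is set against one of another table.

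All 10 keratinocyte markers were above 0 in every population, but not at like levels. The basal keratin gene Krt5 stood at 6494, 6893 and 4960 FPKM in CD34a6, HFSC and bulk, and between 3619 and 5039 FPKM in the 4 culture populations. Krt14, its partner keratin gene, stood at 1257, 8296 and 3420 FPKM in CD34a6, HFSC and bulk, and Krt15, a keratin gene of the hair follicle bulge, at 9923, 37.9 and 4791 FPKM. In CD34a6 over bulk 3 of the 10 markers were called higher and 3 lower, beside 22.0% and 24.3% of all tested loci. In HFSC over bulk 4 were higher and 2 lower, beside 19.0% and 24.7%. In HFSC over CD34a6 5 were higher and 2 lower, beside 25.2% and 29.0%. Cd34, the sort marker, stood at 327, 8.70 and 10.6 FPKM in CD34a6, HFSC and bulk, and at 38.7 FPKM in the CD34+ fraction against 2.26 FPKM in the CD34neg fraction. Cd34 and Krt15, both genes of the bulge, were lower in the column named HFSC than in CD34a6 (adjusted p 0.000212 for both in the authors' deposited table). The summed FPKM of all loci was 406723 in CD34a6, 482175 in HFSC and 917078 in bulk, and it ranged from 495393 to 679559 in the culture populations. Rescaling the populations to equal sums would shift every log2 fold by 1.17 for CD34a6 over bulk, 0.93 for HFSC over bulk, -0.25 for HFSC over CD34a6, 0.41 for CD34+ over CD34neg and 0.11 for dorsomorphin over cyclopamine. No called Hox gene changed direction under it. In HFSC over bulk, 7 genes that were not called did (Hoxa4, Hoxb4, Hoxb5, Hoxb6, Hoxb7, Hoxb8 and Hoxc8). The adjusted p could not be recomputed for rescaled values, so whether each call would stand was not tested.

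The promoters below belong to the genes that were called higher in CD34a6 than in bulk and lower in HFSC than in CD34a6, as far as RefSeq (GRCm38.p6) entries could be matched. Entries were found for 16 of the 31 genes, and for 4 of the 10 genes with both calls. They are shown so that the upstream DNA of co-varying genes from 3 clusters can be read side by side. Each runs 5′ to 3′ on the strand of the gene, from 250 bases before the RefSeq start to 50 bases after it, and capitals mark matches to the motifs named after them. The coordinates on GRCm38.p6 are chr6:52227321-52227620 on the minus strand for Hoxa9, chr11:96318017-96318316 on the plus strand for Hoxb4, chr11:96281655-96281954 on the plus strand for Hoxb8 and chr2:74704365-74704664 on the plus strand for Hoxd8. The Hoxa9 window lies inside the longer GENCODE vM21 gene, which runs from 52223100 to 52231089, while the other 3 windows span the GENCODE start.
Hoxa9: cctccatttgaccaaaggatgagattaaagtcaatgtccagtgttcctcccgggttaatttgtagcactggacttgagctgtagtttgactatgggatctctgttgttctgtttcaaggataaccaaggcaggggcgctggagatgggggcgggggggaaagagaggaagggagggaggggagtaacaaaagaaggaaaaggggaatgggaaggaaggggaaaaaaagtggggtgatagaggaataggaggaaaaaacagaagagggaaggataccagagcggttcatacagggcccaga
Hoxb4: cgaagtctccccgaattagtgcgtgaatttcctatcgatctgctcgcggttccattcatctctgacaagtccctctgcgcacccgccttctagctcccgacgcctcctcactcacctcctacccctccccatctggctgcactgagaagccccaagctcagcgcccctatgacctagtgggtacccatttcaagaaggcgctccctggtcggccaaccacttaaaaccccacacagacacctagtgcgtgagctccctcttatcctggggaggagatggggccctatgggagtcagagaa
Hoxb8: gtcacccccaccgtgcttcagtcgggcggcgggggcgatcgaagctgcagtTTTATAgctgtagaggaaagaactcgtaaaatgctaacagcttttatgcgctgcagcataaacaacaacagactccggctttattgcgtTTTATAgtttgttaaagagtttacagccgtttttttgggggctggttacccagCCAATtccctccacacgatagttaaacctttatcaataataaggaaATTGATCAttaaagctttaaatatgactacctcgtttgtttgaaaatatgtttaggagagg
Hoxd8: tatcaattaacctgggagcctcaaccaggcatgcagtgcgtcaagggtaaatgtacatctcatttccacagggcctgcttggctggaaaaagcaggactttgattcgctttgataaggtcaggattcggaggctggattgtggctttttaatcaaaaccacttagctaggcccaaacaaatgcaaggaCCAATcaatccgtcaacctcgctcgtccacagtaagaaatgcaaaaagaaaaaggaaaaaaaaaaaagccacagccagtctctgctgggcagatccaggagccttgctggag
The motifs, searched on both strands, were TGATNNAT (the site shared by PBX and HOX proteins), TGACAG (the MEIS site), TATAAA (the TATA box) and CCAAT (the CCAAT box), and no motif overlapped another in the capitals shown.

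The Hoxb8 promoter held 1 TGATNNAT match, 2 TATAAA matches, both on the other strand, and 1 CCAAT match. The Hoxd8 promoter held 1 CCAAT match, and the letters of the 4 motifs do not occur in the Hoxa9 and Hoxb4 windows. Over all 32851 promoters of the same length, 8.85% held TGATNNAT, 19.2% TGACAG, 13.6% TATAAA and 37.4% CCAAT. CG dinucleotides numbered 4 in the Hoxa9 window, 14 in Hoxb4, 13 in Hoxb8 and 6 in Hoxd8, beside a median of 7 over all promoters. A match is a description of the letters and not a binding site. Among all 16 Hox promoters, Hoxb1 and Hoxb8 held TGATNNAT, Hoxa10, Hoxb8 and Hoxd13 held TATAAA, 11 held CCAAT and 0 held TGACAG.

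Among the 31 genes, transcripts of central paralogue groups made up most of the Hox signal in every population of the first table. Merged rows are left out of the sums. The row of Gm28308, Hoxa2 and Hoxa3 stood at 29.2 FPKM in CD34a6, beside 39.9 FPKM for groups 1 to 3 as counted. The 17 genes of groups 4 to 9 held 82.6% of the summed Hox FPKM in CD34a6, 68.5% in HFSC and 84.3% in bulk. The 5 genes of groups 1 to 3 held 11.8%, 10.9% and 13.3%. Groups 10 to 13 held 5.59% in CD34a6, 20.6% in HFSC and 2.45% in bulk. Nearly all of that was Hoxc13, since the other 8 genes of these groups summed to 0.0637, 0.109 and 0.0427 FPKM. Across the 3 tables, 12 of the 31 genes stayed under 1 FPKM in every population (Hoxa10, Hoxa11, Hoxa13, Hoxb1, Hoxb13, Hoxc9, Hoxc11, Hoxc12, Hoxd1, Hoxd9, Hoxd12 and Hoxd13), and 5 of them were listed at 0 in all 7 populations (Hoxa11, Hoxa13, Hoxb13, Hoxd12 and Hoxd13). The Hoxd cluster was the least abundant as counted: its 5 genes summed to 9.50 FPKM in CD34a6, 0.133 FPKM in HFSC and 1.25 FPKM in bulk. Hoxd3, Hoxd4, Hoxd10 and Hoxd11 stand in merged rows and are not in these sums. The row with Hoxd3 and Hoxd4 stood at 3.78 FPKM in CD34a6.

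The CD34a6 population carried more Hox transcript than the other populations, and the clusters contributed in different proportions. The 31 genes summed to 339 FPKM in CD34a6, 80.9 FPKM in HFSC and 105 FPKM in bulk. As a share of the summed FPKM of all loci this was 0.0833% in CD34a6, 0.0168% in HFSC and 0.0114% in bulk, so the order of HFSC and bulk turns with the denominator. In CD34a6 the Hoxa, Hoxb and Hoxc clusters were near each other at 114, 116 and 99.3 FPKM. In HFSC they stood at 23.8, 28.1 and 28.9 FPKM. In bulk the Hoxa cluster alone gave 56.7 FPKM, against 30.7 FPKM for Hoxb and 16.2 FPKM for Hoxc, and Hoxa7 made most of it. No test was made of these sums.

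**Figure D1:**
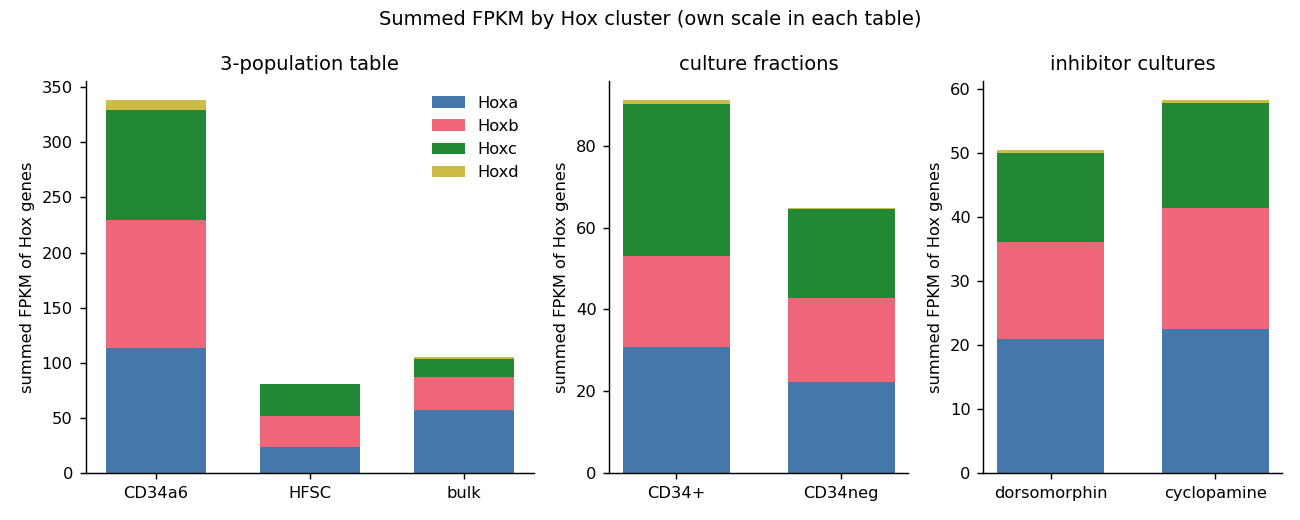
Summed FPKM of the Hox genes (vertical axis, linear from 0, with a scale of its own in each panel) in each population, stacked by cluster, for the 3-population table, the culture fractions and the inhibitor cultures. CD34a6 stands at 339 FPKM beside 80.9 FPKM in HFSC and 105 FPKM in bulk, and the Hoxd segment is the smallest in every column.

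The order of levels differed between the populations. In CD34a6, 11 genes were at 10 FPKM or more, in the order Hoxa7, Hoxc8, Hoxc6, Hoxa5, Hoxb6, Hoxb3, Hoxb2, Hoxc13, Hoxb8, Hoxb7 and Hoxb9, which ran from 67.6 FPKM to 13.1 FPKM. In HFSC only Hoxc13 (16.6 FPKM), Hoxa7 (13.1 FPKM) and Hoxb9 (11.5 FPKM) were at 10 FPKM or more. In bulk only Hoxa7 was, at 41.6 FPKM, followed by Hoxb2 at 9.37 FPKM. Which neighbours in these orders differ beyond replicate spread cannot be told without values per library. The most abundant Hox gene of each population had 996 of the 20087 loci above 0 FPKM higher than it in CD34a6, 4904 of 19307 in HFSC and 2561 of 19896 in bulk.

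**Figure D2:**
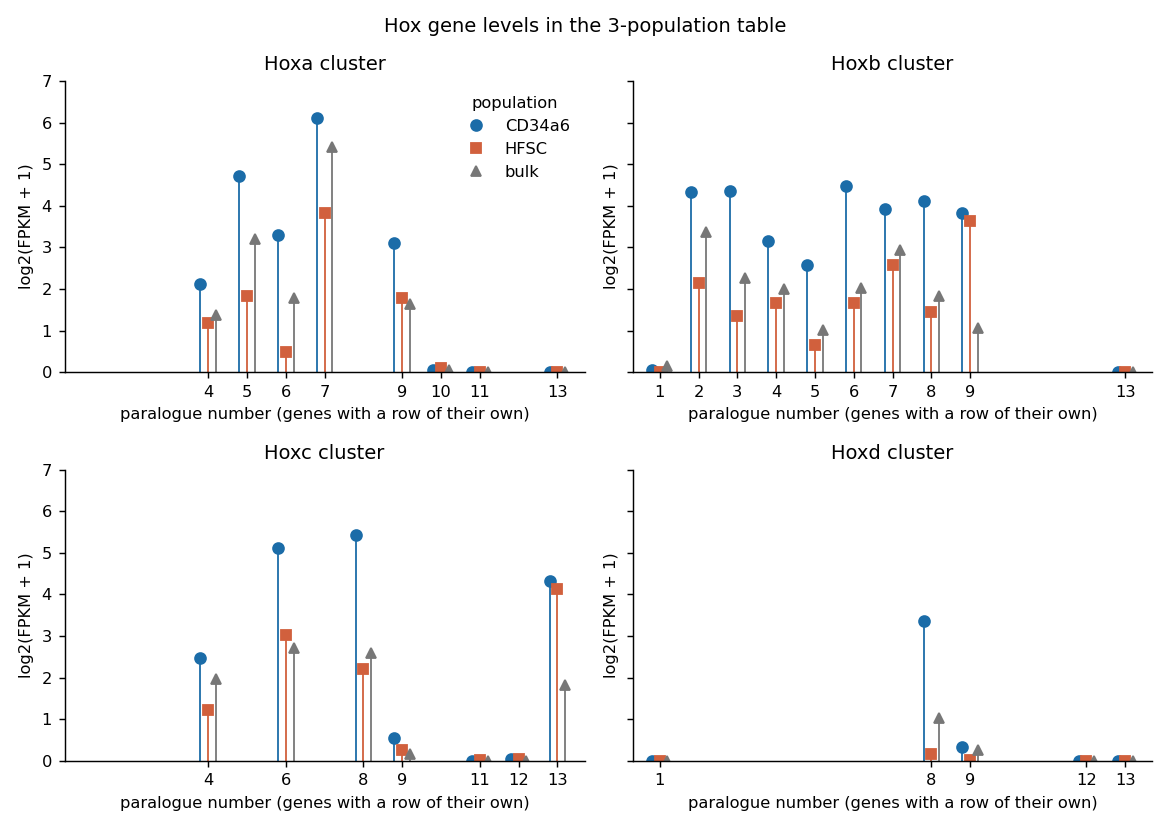
Levels of Hox genes, as log2(FPKM + 1) on the vertical axis, against paralogue number, in 1 panel a cluster; blue circles are CD34a6, orange squares HFSC and grey triangles bulk, with 1 pooled value each and no error bar. The circles top most positions between groups 2 and 9, and circle and square nearly coincide at Hoxb9 and Hoxc13, both far above the triangle.

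CD34a6 was compared with bulk to see how cells of the first population differ from the whole epidermis. Of 31 Hox genes, 20 had a deposited test, 12 were higher in CD34a6, 0 were lower and 8 did not pass, and 13 had an unadjusted p under 0.05. In the same comparison 22.0% of all 14441 tested loci were higher, 24.3% were lower and 46.3% were called in either direction. Since the set was proposed with such results known, nothing is read from the contrast of these shares. The median log2 fold of the 20 tested genes, with a pseudocount of 1 FPKM, was 1.51, beside 0.0029 over all tested loci and -0.15 over 8002 loci of the same range of exonic length. Genes pass the deposited test filter through their abundance, so the 20 are not all the Hox genes, and over all 31 the median was 0.74. With the populations rescaled to equal sums the median of the 20 was 2.41.

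The Hoxb cluster had the most calls, with 7 of its 8 tested genes higher in CD34a6. Hoxb9, which acts on the identity of the ribs, stood at 13.1 FPKM in CD34a6 against 1.09 FPKM in bulk, 12.1-fold higher (log2 fold 3.59, adjusted p 0.000212 in the authors' deposited table). Hoxb6, a gene of the thoracic region, stood at 21.2 FPKM in CD34a6 against 3.08 FPKM in bulk (log2 fold 2.79, the same adjusted p). Hoxb8, known from mouse mutants that groom to excess, stood at 16.3 FPKM in CD34a6 against 2.55 FPKM in bulk (log2 fold 2.68). All 3 were scarce in bulk, at about 1 to 3 FPKM. Hoxb3, a hindbrain patterning gene, was at 19.5 FPKM in CD34a6 against 3.82 FPKM in bulk, and Hoxb5, which helps to place the shoulder girdle, at 4.93 against 1.01 FPKM. Hoxb4, best known for its effect on blood stem cells, was at 7.92 FPKM in CD34a6 against 3.01 FPKM in bulk, and Hoxb7 at 14.1 against 6.64 FPKM. Their adjusted p-values in the authors' deposited table lay between 0.0011 for Hoxb4 and 0.0165 for Hoxb5. Hoxb2, the remaining tested gene of the cluster, was at 19.0 FPKM in CD34a6 against 9.37 FPKM in bulk and lay just outside the threshold (adjusted p 0.0561 in the authors' deposited table).

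In the Hoxc and Hoxd clusters 4 genes were called, with folds between 6.01 and 8.81. Hoxc8, a gene of the lower thoracic region, stood at 41.8 FPKM in CD34a6 against 5.06 FPKM in bulk, 8.26-fold higher. Hoxc6, also a thoracic gene, stood at 33.6 FPKM in CD34a6 against 5.59 FPKM in bulk, 6.01-fold higher. Hoxc13, which is needed for hair shaft and nail formation in mice, stood at 18.9 FPKM in CD34a6 against 2.53 FPKM in bulk, 7.47-fold higher. Hoxd8 was the called Hoxd gene, at 9.24 FPKM in CD34a6 against 1.05 FPKM in bulk, 8.81-fold higher. For all 4 the adjusted p was 0.000212, the smallest value that the authors' deposited table gives here. Hoxc4 was at 4.52 FPKM in CD34a6 against 2.94 FPKM in bulk, with an adjusted p of 0.103, and Hoxc9 stayed at 0.455 against 0.118 FPKM.

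The Hoxa cluster had 1 call among 6 tested genes. Hoxa9, known for its part in blood progenitors, stood at 7.54 FPKM in CD34a6 against 2.10 FPKM in bulk, 3.59-fold higher (adjusted p 0.0165 in the authors' deposited table). Hoxa5, which is needed for lung development, stood at 25.1 FPKM in CD34a6 against 8.27 FPKM in bulk and was not called (log2 fold 1.60, adjusted p 0.101). Hoxa7, the most abundant Hox gene in both populations, stood at 67.6 FPKM in CD34a6 against 41.6 FPKM in bulk and was not called (log2 fold 0.70, adjusted p 0.140). Hoxb4 and Hoxb7 had passed with smaller folds than that of Hoxa5. Hoxa4 and Hoxa6 were not called either, at 3.31 and 8.88 FPKM in CD34a6 against 1.59 and 2.44 FPKM in bulk. Hoxa4, Hoxa5, Hoxa6 and Hoxa7 were given a single locus in the tables, at 52162511 to 52221854 on chromosome 6, which also holds Hoxa2, Hoxa3 and antisense transcripts, so their reads may not be separated.

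HFSC was compared with bulk to place the second population beside the whole epidermis. Of 19 tested Hox genes, 3 were higher in HFSC, 4 were lower and 12 did not pass, beside 19.0% higher, 24.7% lower and 43.7% called in either direction among all 14035 tested loci. The median log2 fold was -0.36 for the tested Hox genes and -0.11 over all tested loci, and it was -0.14 over all 31 Hox genes and 0.31 with the populations rescaled to equal sums, so the set has no common direction here. Hoxb9 stood at 11.5 FPKM in HFSC against 1.09 FPKM in bulk, 10.6-fold higher, and Hoxc13 at 16.6 against 2.53 FPKM, 6.56-fold higher (adjusted p 0.000212 for both in the authors' deposited table). Hoxb9 and Hoxc13 lie in different clusters.

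The 4 genes lower in HFSC than in bulk also came from different clusters. Hoxd8 stood at 0.127 FPKM in HFSC against 1.05 FPKM in bulk, 8.23-fold lower. Hoxa7 stood at 13.1 FPKM in HFSC against 41.6 FPKM in bulk, 3.17-fold lower. Hoxb2 stood at 3.40 FPKM in HFSC against 9.37 FPKM in bulk, 2.76-fold lower, and Hoxc4 at 1.31 against 2.94 FPKM, 2.24-fold lower. Their adjusted p-values in the authors' deposited table were 0.000586, 0.00174, 0.00891 and 0.00432. Hoxc8 stood at 3.63 FPKM in HFSC against 5.06 FPKM in bulk (adjusted p 0.298), and Hoxb6 at 2.19 against 3.08 FPKM (adjusted p 0.307), and neither was called. Hoxa5, at 2.55 FPKM in HFSC against 8.27 FPKM in bulk, had an unadjusted p of 0.0461 and an adjusted p of 0.0861. The p-values that miss the threshold do not show that these levels are alike.

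**Figure D3:**
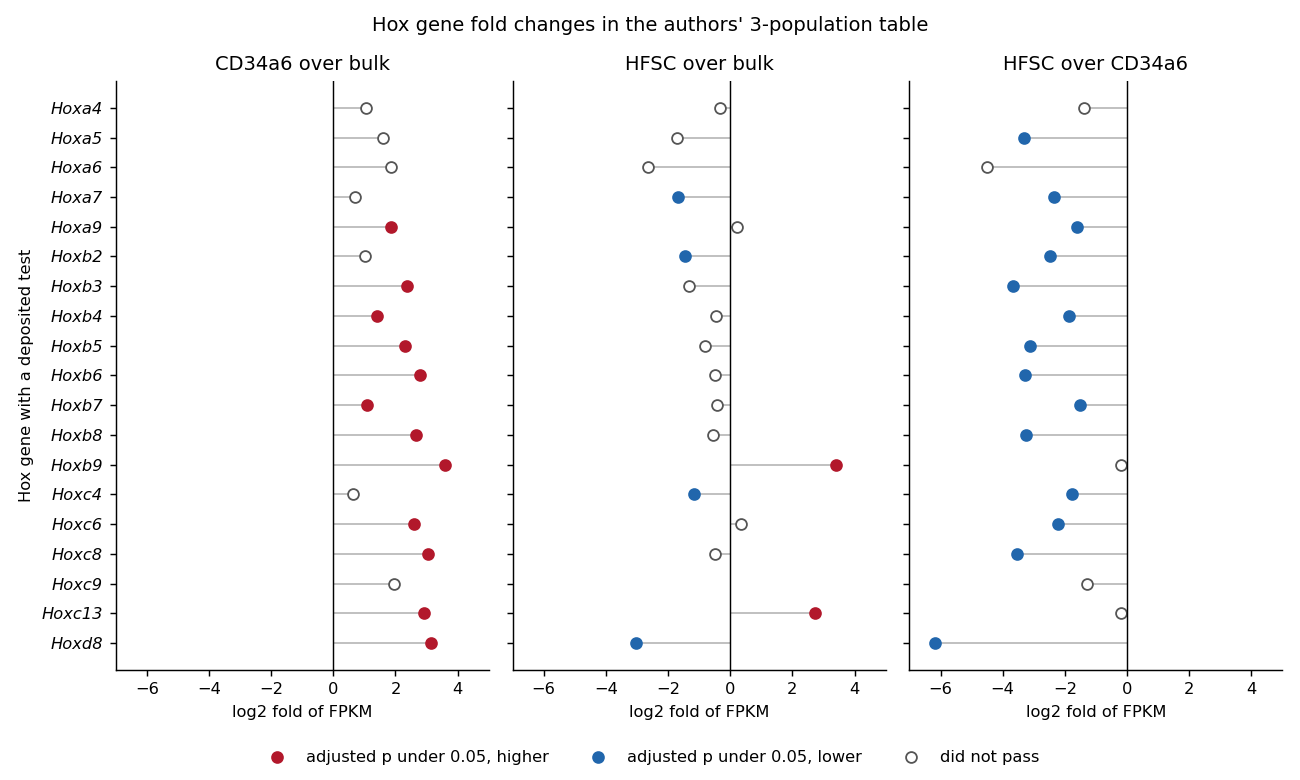
Log2 fold of FPKM (horizontal axis) from the authors' deposited table for Hox genes with a test, in CD34a6 over bulk, HFSC over bulk and HFSC over CD34a6; filled points passed an adjusted p of 0.05, red for higher and blue for lower, and open points did not. Red points number 12 in the first panel, 2 in the second and 0 in the third, and blue points 0, 4 and 14; with sums rescaled, 7 open points of the second panel (Hoxa4, Hoxb4, Hoxb5, Hoxb6, Hoxb7, Hoxb8 and Hoxc8) change side.

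HFSC was then set directly against CD34a6. Of 20 tested Hox genes, 14 were lower in HFSC, 1 was higher and 5 did not pass, beside 29.0% lower, 25.2% higher and 54.2% called in either direction among all 13962 tested loci. The median log2 fold was -2.00 for the tested Hox genes and -0.07 over all tested loci. It was -0.93 over all 31 Hox genes and -1.30 over the tested ones whose locus overlaps no other annotated gene. This comparison shares the CD34a6 population with the one against bulk, so the 10 genes called in both are not independent counts. They were Hoxa9, Hoxb3 to Hoxb8, Hoxc6, Hoxc8 and Hoxd8.

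Hoxd8 had the largest fold of the called genes, at 0.127 FPKM in HFSC against 9.24 FPKM in CD34a6, 72.5-fold lower, from a level in HFSC that is close to 0. Hoxb3 stood at 1.54 FPKM in HFSC against 19.5 FPKM in CD34a6, 12.7-fold lower. Hoxc8 stood at 3.63 FPKM in HFSC against 41.8 FPKM in CD34a6, 11.5-fold lower. These genes lie in 3 clusters and in paralogue groups 3 and 8. Hoxa5 stood at 2.55 FPKM in HFSC against 25.1 FPKM in CD34a6, 9.86-fold lower, and Hoxb6 at 2.19 against 21.2 FPKM, 9.69-fold lower. Hoxb8 was 9.43-fold, Hoxb5 8.64-fold, Hoxb2 5.59-fold, Hoxa7 5.14-fold and Hoxc6 4.70-fold lower in HFSC. The smallest called folds were 3.64 for Hoxb4, 3.44 for Hoxc4, 3.07 for Hoxa9 and 2.83 for Hoxb7. The authors' deposited table gives 0.000212 as the adjusted p of all 14. Hoxa5, Hoxa7, Hoxb2 and Hoxc4 were called here and not in CD34a6 over bulk; whether the 2 differences differ was not tested.

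Hoxb9 and Hoxc13 stood apart from this list. Hoxb9 stood at 11.5 FPKM in HFSC against 13.1 FPKM in CD34a6 (log2 fold -0.19, adjusted p 0.293 in the authors' deposited table). Hoxc13 stood at 16.6 FPKM in HFSC against 18.9 FPKM in CD34a6 (log2 fold -0.19, adjusted p 0.289). Hoxb9 and Hoxc13 were thus called higher than bulk in both other populations and not called between them. Their loci hold no other annotated gene: Hoxb9 lies at 96271457 to 96276595 on chromosome 11 and Hoxc13 at 102921103 to 102928814 on chromosome 15, both on the plus strand. Hoxa6, at 0.387 FPKM in HFSC against 8.88 FPKM in CD34a6, was not called in spite of its log2 fold of -4.52 (adjusted p 0.0794), and Hoxa4 and Hoxc9 were not called either.

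In bulk RNA of this kind, fewer cells of a type and less RNA per cell cannot be told apart. Markers of other cell types moved between the same populations. Fibroblasts are rich in Hox transcripts, and the 13 fibroblast and dermal markers summed to 99.4 FPKM in CD34a6, 12.1 FPKM in HFSC and 89.3 FPKM in bulk. Among the 6 tested, CD34a6 over bulk gave 3 higher and 2 lower, with the collagen gene Col1a1 at 22.4 against 1.21 FPKM and the intermediate filament gene Vim at 5.53 against 56.6 FPKM. In HFSC 0 of 6 were higher and 4 were lower than in CD34a6, beside 25.2% and 29.0% of all tested loci. For CD34a6 over bulk the shares of all tested loci were 22.0% higher and 24.3% lower. In either direction, 46.3% were called in CD34a6 over bulk and 54.2% in HFSC over CD34a6. Fbln1 was also higher in CD34a6 than in bulk, at 58.4 against 10.4 FPKM, and Thy1 was lower, at 2.24 against 17.6 FPKM. Col3a1 and Lum were listed at 0 in CD34a6 and in HFSC, and so were Pdgfrb and Twist2 in CD34a6. In bulk Twist2 was at 0 too, and Col3a1, Lum and Pdgfrb stood at 0.281, 0.011 and 0.0070 FPKM, so these zeros hardly separate the populations. The 14 immune markers summed to 7.73 FPKM in CD34a6, 4.28 FPKM in HFSC and 519 FPKM in bulk. Of the 14, 12 were lower in CD34a6 than in bulk, beside 24.3% of all tested loci. The 10 melanocyte and neural crest markers summed to 25.2 FPKM in CD34a6, 3.39 FPKM in HFSC and 8.39 FPKM in bulk, but they did not move together. Of 6 tested, 3 were higher in CD34a6 than in bulk and 1 was lower, beside 22.0% and 24.3% of all tested loci. Mitf stood at 13.9 FPKM in CD34a6 against 0.981 FPKM in bulk, and Dct at 7.29 against 2.63 FPKM. The lower gene was Tyrp1, at 0.348 FPKM in CD34a6 against 1.18 FPKM in bulk. The 9 endothelial and mural markers summed to 2.54, 63.4 and 2.21 FPKM in CD34a6, HFSC and bulk, with Acta2 at 62.1 FPKM in HFSC. The muscle markers summed to 5.47, 10.8 and 38.0 FPKM in the same order, nearly all of it Mylpf at 5.37, 10.6 and 37.8 FPKM. The part of these other cell types in the Hox result was not tested.

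Where a gene sits in the deposited loci also bears on how far its value is its own. Of the 31 Hox genes, 16 have a table locus that holds no other annotated gene, and 12 share a locus with another Hox gene. Hoxc6, Hoxc8 and Hoxc9 share 102966796 to 103017429 on chromosome 15, Hoxb5 and Hoxb6 share 96291024 to 96306910 on chromosome 11, and Hoxb2 and Hoxb3 share 96323326 to 96354691 on the same chromosome. Hoxd8 was given a locus of 59649 bp that also holds Hoxd3, Hoxd4 and antisense transcripts, while the annotated gene runs from 74704615 to 74707933 on chromosome 2. The annotated Hoxc8 gene runs from 102990607 to 102994111 on chromosome 15, Hoxb6 from 96292476 to 96301569 on chromosome 11 and Hoxa5 from 52201754 to 52204587 on the minus strand of chromosome 6. With only the genes whose locus holds no other, 5 Hox genes instead of 12 were higher in CD34a6 than in bulk and 4 instead of 14 were lower in HFSC than in CD34a6. The 5 were Hoxb4, Hoxb7, Hoxb8, Hoxb9 and Hoxc13, and the 4 were Hoxb4, Hoxb7, Hoxb8 and Hoxc4. Among tested genes with such loci, only Hoxc4 was not called in the first comparison, and only Hoxb9 and Hoxc13 were not called in the second. Fewer genes enter these counts, so the drop is not a measure of smaller folds. For tested genes with such loci the median log2 fold of CD34a6 over bulk was 1.72, beside 1.51 for all tested Hox genes. For HFSC over CD34a6 it was -1.30, beside -2.00. Whether strand was used in assigning reads is not given in the sources used here, although the library kit was directional.

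The 3C culture fractions were compared to identify the cells that grow in these cultures. Hoxc13 was the 1 Hox gene called among 12 tested, beside 2.08% higher, 4.71% lower and 6.79% called in either direction among all 11370 tested loci. It stood at 16.0 FPKM in the CD34+ fraction against 6.60 FPKM in the CD34neg fraction, 2.43-fold higher (log2 fold 1.28, adjusted p 0.00804 in the authors' deposited table). Over these populations the 31 genes summed to 91.3 FPKM in CD34+ and 64.7 FPKM in CD34neg. The Hoxc cluster gave 37.2 FPKM in CD34+ against 21.8 FPKM in CD34neg, Hoxa 30.9 against 22.3 FPKM and Hoxb 22.1 against 20.5 FPKM. Hoxa7 was the most abundant gene in both fractions, at 22.9 FPKM in CD34+ against 15.7 FPKM in CD34neg (adjusted p 0.279), followed by Hoxc13 in CD34+ and by Hoxb7 in CD34neg.

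The other tested Hox genes were not called between the fractions. Hoxc8 stood at 13.5 FPKM in CD34+ against 7.41 FPKM in CD34neg, with a p of 0.0429 before and 0.203 after adjustment in the authors' deposited table. Hoxb3 stood at 1.81 FPKM in CD34+ against 0.668 FPKM in CD34neg (unadjusted p 0.0230, adjusted p 0.145), and Hoxb9 at 3.29 against 1.79 FPKM (unadjusted p 0.0469, adjusted p 0.214). With Hoxc13 these are the 4 genes at an unadjusted p under 0.05. Hoxb5 stood at 2.95 FPKM in CD34+ against 1.20 FPKM in CD34neg, and Hoxa5 and Hoxa6 at 3.08 and 1.96 against 2.39 and 1.24 FPKM. Hoxb6 stood at 2.58 FPKM in CD34+ against 4.25 FPKM in CD34neg, Hoxb7 at 7.11 against 9.16 FPKM, and the sign of Hoxb7 turned with equal sums. Hoxc6 was at 6.19 FPKM in CD34+ against 6.09 FPKM in CD34neg, and Hoxb4 at 2.09 against 1.85 FPKM. Hoxd8 had no test, at 1.04 FPKM in CD34+ against 0.0630 FPKM in CD34neg. The median log2 fold over the 12 tested Hox genes was 0.46, beside -0.07 over all tested loci, but it was 0 over all 31 Hox genes, and it was 0.78 for the 12 with equal sums.

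Inhibitor cultures were compared to find early changes after 48 h. Hoxc13 was again the 1 Hox gene called, among 11 tested, beside 1.26% higher, 1.31% lower and 2.57% called in either direction among all 11505 tested loci. It stood at 3.24 FPKM with dorsomorphin against 6.34 FPKM with cyclopamine, 1.96-fold lower (log2 fold -0.97, adjusted p 0.00859 in the authors' deposited table). The study describes dorsomorphin as depleting HFSCs and cyclopamine as enriching them. There was no untreated culture in this table, so the values do not tell which agent moved the gene. Cd34 stood at 6.87 FPKM with dorsomorphin against 11.7 FPKM with cyclopamine (adjusted p 0.0530), and Krt15 at 3.61 against 20.6 FPKM (adjusted p 0.00479).

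None of the other 10 tested Hox genes was called between the inhibitors by the authors' test, and 3 of the 11, Hoxc13 included, had an unadjusted p under 0.05. Hoxa7 stood at 14.6 FPKM with dorsomorphin against 16.2 FPKM with cyclopamine, Hoxc8 at 5.08 against 5.37 FPKM and Hoxc6 at 4.30 against 3.53 FPKM. Hoxb6 stood at 1.82 FPKM with dorsomorphin against 3.60 FPKM with cyclopamine (unadjusted p 0.0126, adjusted p 0.199 in the authors' deposited table). Hoxb5 stood at 0.818 FPKM with dorsomorphin against 1.69 FPKM with cyclopamine (unadjusted p 0.0295, adjusted p 0.306). These neighbours on chromosome 11 were given a single locus. Hoxb9 stood at 4.20 FPKM with dorsomorphin against 4.37 FPKM with cyclopamine, Hoxb7 at 4.16 against 4.66 FPKM, Hoxb4 at 2.07 against 1.97 FPKM, Hoxa5 at 2.31 against 2.46 FPKM and Hoxa9 at 1.38 against 1.44 FPKM. The signs of Hoxa5, Hoxa9, Hoxb9 and Hoxc8 turned with equal sums. The summed Hox FPKM was 50.4 with dorsomorphin and 58.3 with cyclopamine, and the median log2 fold of the 11 tested genes was -0.07, beside -0.02 over all tested loci and 0 over all 31 Hox genes.

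**Figure D4:**
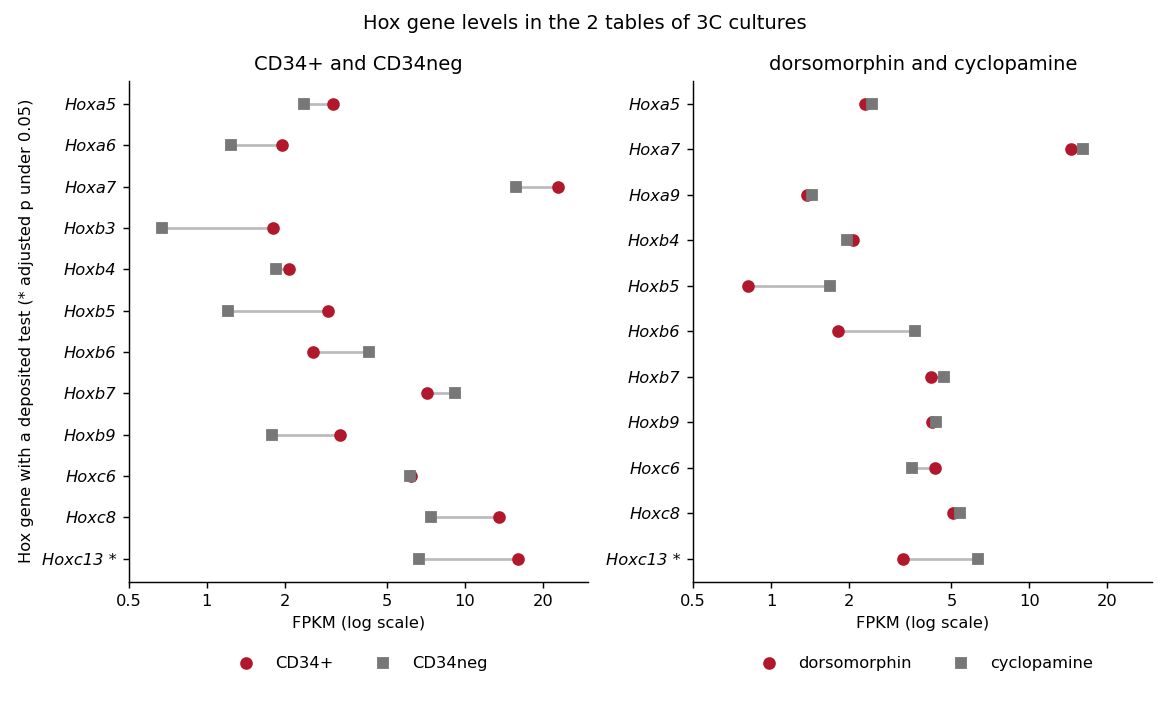
FPKM on a log scale (horizontal axis) of each Hox gene with a deposited test, in the CD34+ (red circle) and CD34neg (grey square) fractions and in the dorsomorphin (red circle) and cyclopamine (grey square) cultures; each point is 1 pooled value, and an asterisk marks an adjusted p under 0.05. Hoxc13 carries the asterisk in both panels, at 16.0 against 6.60 FPKM in CD34+ and CD34neg, and at 3.24 against 6.34 FPKM with dorsomorphin and cyclopamine.

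Hox proteins bind DNA together with homeodomain cofactors of the PBX, MEIS and PKNOX families, and a list of 9 cofactor genes was followed in the same tables, of which 8 had a row. In CD34a6 over bulk, 5 of 8 tested cofactor genes were higher and 0 lower, beside 22.0% higher and 24.3% lower among all tested loci, with Pbx3 at 23.6 against 3.14 FPKM, Meis1 at 13.4 against 2.62 FPKM, and Pknox1 at 13.1 against 5.89 FPKM. In HFSC over bulk, 1 was higher and 2 were lower, beside 19.0% and 24.7% of all tested loci, with Pbx4 on the lower side at 0.521 against 1.64 FPKM. In HFSC over CD34a6, 2 were higher and 5 lower, beside 25.2% and 29.0% of all tested loci, with Meis2 at 6.12 against 2.57 FPKM on the higher side and Pbx3 at 4.26 against 23.6 FPKM on the lower side. Between the culture fractions Pbx3 was the 1 gene called of 5, at 9.13 FPKM in CD34+ against 3.54 FPKM in CD34neg (adjusted p 0.00656 in the authors' deposited table). Between the inhibitors 0 of 5 were called. Among all tested loci 6.79% and 2.57% were called in these comparisons.

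Regulators that keep Hox clusters active or silent were also mixed. Of 18 tested genes of the Trithorax and Polycomb groups and of the signals that set Hox domains in the embryo, CD34a6 over bulk gave 6 higher and 1 lower. The Polycomb genes Phc1, Bmi1 and Suz12 stood at 5.12, 20.8 and 25.4 FPKM in CD34a6 against 0.689, 7.84 and 9.76 FPKM in bulk. The 1 lower gene was Wnt3a, at 0.198 FPKM in CD34a6 against 4.12 FPKM in bulk, and it had the largest fold of the 7 called. In HFSC over bulk 5 were higher and 2 lower, and in HFSC over CD34a6 4 were higher and 9 lower. Among all tested loci 46.3%, 43.7% and 54.2% were called in these comparisons. Counted in either direction, 7 of 18 in each of the first pair is no more than the background. By direction, 22.0%, 19.0% and 25.2% of all tested loci were higher, and 24.3%, 24.7% and 29.0% were lower. The 9 of 18 lower in HFSC than in CD34a6 lie above that last share. The list was chosen with results known, so nothing is read from the contrast. Kmt2a, a Trithorax group methyltransferase gene that maintains Hox expression, stood at 5.08 FPKM in HFSC against 14.3 FPKM in CD34a6 and was lower, and the Polycomb gene Cbx7 at 3.58 against 11.4 FPKM was lower too. None of 16 tested was called between the culture fractions or between the inhibitors, beside 6.79% and 2.57% of all tested loci. The Cdx genes Cdx1, Cdx2 and Cdx4, which activate central Hox genes in the embryo, were listed at 0 in all 7 populations.

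Retinoic acid, which switches on low-numbered Hox genes in the embryo, acts through receptors and enzymes of which 10 were tested in the first table. In CD34a6 over bulk 1 was higher and 2 were lower, with the receptor gene Rara at 25.0 against 11.4 FPKM and the binding protein gene Crabp2 at 15.9 against 320 FPKM. In HFSC over bulk 1 was higher and 4 were lower, with Crabp2 at 32.9 against 320 FPKM and the reductase gene Dhrs3 at 6.37 against 45.9 FPKM. In HFSC over CD34a6 1 was higher and 6 were lower, with Rara at 6.18 against 25.0 FPKM. The shares called in either direction among all tested loci were 46.3%, 43.7% and 54.2%. By direction, 22.0%, 19.0% and 25.2% of all tested loci were higher, and 24.3%, 24.7% and 29.0% were lower. Crabp2 was the 1 gene called of 7 between the culture fractions, at 1.11 FPKM in CD34+ against 5.38 FPKM in CD34neg. Between the inhibitors 0 of 10 were called. The shares among all tested loci were 6.79% and 2.57%.

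Positional factors outside the Hox clusters, such as those of limb and facial skin, were mostly scarce, with Barx2 as the main exception. Barx2 stood at 235 FPKM in CD34a6, 21.6 FPKM in HFSC and 102 FPKM in bulk, where the whole list summed to 294, 54.1 and 130 FPKM. Dlx3 stood at 23.4, 3.67 and 16.1 FPKM. Both were called lower in HFSC than in CD34a6 and in bulk. Of 30 listed, 12 were at 0 in CD34a6, 11 in HFSC and 13 in bulk. Among the 10 tested in CD34a6 over bulk 5 were higher and 1 lower, with Lmx1b, which gives limbs their dorsal identity, at 4.12 against 0.144 FPKM, Dlx2 at 12.3 against 0.532 FPKM and Msx1 at 6.55 against 0.967 FPKM. Among 12 tested in HFSC over bulk 5 were higher and 2 lower, and in HFSC over CD34a6 3 were higher and 5 lower. In these 3 comparisons 22.0%, 19.0% and 25.2% of all tested loci were higher, and 24.3%, 24.7% and 29.0% were lower. In either direction 46.3%, 43.7% and 54.2% were called. The hindlimb gene Pitx1 was listed at 0 in CD34a6 and in bulk and stood at 1.09 FPKM in HFSC, and it was called higher in both comparisons. None of the 4 tested between culture fractions and none of the 6 between inhibitors was called, beside 6.79% and 2.57% of all tested loci.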

How the data were processed

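The 21 libraries were made from RNA of sorted, cultured or total epidermal cells with a directional kit, per the labels' protocols, and fall into 7 groups of 3 by their titles. Values came from 3 tables of the authors' own comparisons. The 9 libraries behind the 3-population table, per the submitters' processing notes, went through Cufflinks 2.2.1 and Cuffdiff after HISAT 0.1.6 and StringTie 1.1.0, with FastQC 0.11.3, while TopHat2 is named as the aligner in the labels' description. The same notes list DESeq2 1.8.1, featureCounts (Subread 1.4.2), TopHat2 2.0.13, cutadapt 1.5 and FastQC 0.11.2 for the 12 culture libraries, but their tables have the Cuffdiff layout, so which tool gave their p-values is not settled. The build was GRCm38, per the same notes.

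Expression is in FPKM per the file headers, scaled by the authors and pooled over replicates. The log2 fold change, the test statistic (a score that was not used), the p-value and the q-value were deposited by the authors. Folds were turned here so that the first named population is on top. A Benjamini-Hochberg adjustment within each table gave the deposited q-values to within 5.3e-07. Duplicate lines were dropped. The column 3C_HFSC was read as the CD34+ fraction. No new gene test was made, since the tables hold no value per replicate, and counting intervals were not possible. Medians used log2(FPKM + 1), which understates folds of low genes. Loci were compared with GENCODE vM21, and starts, which count from 0 in the tables, are printed counting from 1. Promoters are from RefSeq, GRCm38.p6.

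The Hox set and the 10 other lists of 142 genes were chosen with earlier results of these data known. 1 Hox gene and 1 cofactor gene enter the counts and sums but are neither named nor plotted by gene and are not reported here. The other Hox genes with a deposited test and at least 1 FPKM in a population of that table are given by value, the rest by range and count. From other lists, genes are named from the 4 called genes of largest fold per list and comparison, but not all of these are named. Krt5, Cd34, Krt15, Col3a1, Lum, Pdgfrb, Twist2 and the Cdx genes are named as markers, and Hoxc9 is given beside its cluster. The counting steps were tested on simulated data. Alternatives were an adjusted p of 0.01, minimum levels and folds, loci without overlap, adjustment within a pair, other pseudocounts, recentring and equal sums. Python 3.11.15, numpy 2.4.6, pandas 2.3.3 and matplotlib 3.10.9 were used.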

Additional observations from a re-analysis of the deposited data

Results flagged for a closer look

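Of 10 rows outside the Hox set, which merge symbols or name an antisense transcript, 4 showed signal in CD34a6 that was called above the level in bulk. Not all of the 10 had a test. In the same comparison 22.0% of all 14441 tested loci were higher. The row of Gm28308, Hoxa2 and Hoxa3 stood at 29.2 FPKM in CD34a6 against 4.66 FPKM in bulk (adjusted p 0.0313 in the authors' deposited table), and at 2.26 FPKM in HFSC. The row of Gm28230, Hoxd3 and Hoxd4 stood at 3.78 FPKM in CD34a6 against 0.0846 FPKM in bulk (adjusted p 0.000212 in the authors' deposited table), and was listed at 0 in HFSC. The row of Hoxc10 and Hoxc5 stood at 8.29 FPKM in CD34a6 against 2.15 FPKM in bulk (adjusted p 0.0364 in the authors' deposited table), and at 3.04 FPKM in HFSC. The antisense transcript Hoxaas2 stood at 4.86 FPKM in CD34a6 against 0.269 FPKM in bulk (adjusted p 0.0174 in the authors' deposited table), and at 0.212 FPKM in HFSC. The other rows were not called: Hoxb5os stood at 6.13 FPKM in CD34a6 against 0.843 FPKM in bulk, Hoxd3os1 at 4.19 against 0.442 FPKM, Hoxb3os at 2.00 against 0.933 FPKM and Hoxaas3, in the other direction, at 2.84 against 4.41 FPKM. The rows of Hoxd10 with Hoxd11 and of Hoxa11os had no test. All 4 called rows lie in loci of the Hoxa, Hoxc or Hoxd cluster that the tables share with genes of the Hox set, so these values are not independent of theirs.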

How the results depend on the processing

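No paired analysis was possible because the tables hold no value per replicate, and leaving out replicates could not be run for the same reason. Of the recomputed counts of called Hox genes, 60 stayed within 1.5 times the reported count and 6 did not. Part of the 60 was fixed in advance. Recentring and equal sums kept the deposited adjusted p, so a call could change direction there but not be lost. A reported count of 0 could not rise under a stricter threshold or with fewer genes. With only loci that hold no other gene, 5 genes were higher in CD34a6 than in bulk, 1 was lower in HFSC than in bulk, and 4 were lower and 0 higher in HFSC than in CD34a6; fewer genes enter these counts. With a fold of at least 2 on the scale with a pseudocount of 1, 2 genes were lower in HFSC than in bulk and 0 were lower with dorsomorphin than with cyclopamine. Rescaling to equal sums, chosen after seeing the data, turned the median log2 fold of tested Hox genes to 0.31 for HFSC over bulk and 0.018 for dorsomorphin over cyclopamine, and the cause was not tested. Levels rest on pooled values of unknown depth, so low genes carry the least weight.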
